A study of Mus musculus with 12 samples.

Results

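The genes described here are 38 genes that copy DNA in S phase or prepare the cell for it, measured in the hippocampus of mouse pups. They were taken by gene symbol, and each of the 38 symbols had 1 entry among the 29454 genes measured. RNA was sequenced in 12 libraries from littermate pups of strain C57/BL6. By the sample labels the pups were at postnatal day 4, whereas the series' design text has day 0. The 3 wild-type (WT) libraries were made from pups with no transgene. The 3 CAMK libraries were made from CaMKIIα-tTA pups, whose driver places the tetracycline transactivator under a promoter active in forebrain neurons. For the 6 CX3CL1-ct libraries, pups were Tg-CX3CL1-ct/tTA. They carried that driver together with a transgene encoding the C terminus of CX3CL1, the membrane-bound neuronal chemokine. CX3CL1-ct and CAMK thus share the driver, and WT lacks both. The Tg-CX3CL1-ct line had been backcrossed with C57BL/6J for 6 generations before it was crossed with the driver line. The labels give neither sex nor litter, nor whether each library is a separate animal, so every p-value rests on the spread among these libraries alone, which may be technical.

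DNA is copied once per cell cycle. Origins are first licensed, when Cdt1 and Cdc6 load the ring of Mcm proteins onto DNA, and then fired, when Cdc45 and the GINS complex turn that ring into the moving helicase. Polymerases, the Pcna clamp, enzymes that supply nucleotides and factors that rebuild chromatin follow the fork, and E2F transcription factors drive many of these genes together in late G1 and S phase. In the hippocampus of newborn mice, dividing progenitors of the dentate gyrus and glial precursors are among the cells in S phase, while most neurons have left the cycle.

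The promoters of the members often held an E2F-type match, and 4 of them are shown to let this be seen. Windows of 300 bases, from 250 before to 50 after the start of the gene (RefSeq, GRCm38.p6), were at hand for 33 of the 38 members. On both strands, TTCCCGC was searched as the E2F type, with the variants TTGGCGC as well as TTCGCGC and also TTGCCGC. Beside them CCAAT, the box bound by NF-Y, was searched. An E2F-type match was found in 21 of the 33 members (63.6%), against 19.5% of the 10345 genes tested that had a window and 10.9% of all 27025 genes with a window. CCAAT was found in 18 of the 33 members (54.5%), against 42.8% of the genes tested and 41.1% of all genes with a window. In the lines that follow, capitals mark the E2F-type matches, overlapping ones joined, in the bases before the start that lie in no annotated exon. Rrm1, Mcm6 and Mcm7 are, apart from Prim1, the members with the highest level whose window held a match. The match of Prim1 lies in an annotated exon, and Rrm2, next in level with a match outside exons, is shown in its place.
Rrm1, chr7:102441445-102441694, plus strand: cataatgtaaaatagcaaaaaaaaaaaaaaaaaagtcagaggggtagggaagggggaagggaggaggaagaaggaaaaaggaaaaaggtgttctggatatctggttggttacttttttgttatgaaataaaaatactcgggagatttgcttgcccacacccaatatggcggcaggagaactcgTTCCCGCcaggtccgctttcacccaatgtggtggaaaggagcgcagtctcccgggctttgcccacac
Mcm6, chr1:128359706-128359955, minus strand: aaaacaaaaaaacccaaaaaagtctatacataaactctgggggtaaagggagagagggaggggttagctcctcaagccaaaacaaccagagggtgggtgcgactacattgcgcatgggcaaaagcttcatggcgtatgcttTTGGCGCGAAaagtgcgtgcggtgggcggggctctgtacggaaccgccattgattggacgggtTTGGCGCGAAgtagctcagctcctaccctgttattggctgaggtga
Mcm7, chr5:138171267-138171516, minus strand: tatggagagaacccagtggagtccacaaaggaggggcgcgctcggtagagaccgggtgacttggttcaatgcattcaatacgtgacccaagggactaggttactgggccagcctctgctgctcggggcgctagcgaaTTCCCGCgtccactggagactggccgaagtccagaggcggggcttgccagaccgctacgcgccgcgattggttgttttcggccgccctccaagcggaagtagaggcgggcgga
Rrm2, chr12:24708004-24708240, plus strand: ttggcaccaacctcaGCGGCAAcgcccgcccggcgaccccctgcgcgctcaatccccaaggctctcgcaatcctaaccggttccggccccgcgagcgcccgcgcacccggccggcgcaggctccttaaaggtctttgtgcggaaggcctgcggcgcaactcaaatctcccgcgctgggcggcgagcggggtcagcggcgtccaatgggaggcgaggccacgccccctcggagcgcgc
In Mcm6, the same 10 letters, TTGGCGCGAA, occurred from 109 to 100 and from 46 to 37 bases before the start. TTGGCGC on one strand and TTCGCGC on the other overlap in them. Rrm1 had TTCCCGC from 67 to 61 bases before the start, between a pair of CCAAT boxes. Mcm7 had 2 windows, for 2 starts, and in the one shown TTCCCGC lay from 113 to 107 bases before the start. That window lies within the gene as placed by GENCODE (138164583 to 138172422). In Rrm2 the match was GCGGCAA, the reverse of TTGCCGC, from 235 to 229 bases before the start. A match is a run of letters and does not show that a factor binds there. Of the members tested, the 21 with an E2F-type match had a median log2 difference of -0.17 between CAMK and WT, and the 12 without one had -0.08. For CX3CL1-ct against CAMK these medians were 0.18 and 0.14.

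Depth was estimated from the FPKM that 1 fragment gives in short genes, since the files used here hold no counts, and came to 12300000 to 16200000 fragments per library. FPKM (fragments scaled to transcript length and library total) allows levels to be compared between genes of different length. The targeted gene, Cx3cl1, stood at 40.6 ± 1.89 FPKM (SD, n = 3) in WT, 38.2 ± 3.46 (n = 3) in CAMK and 38.6 ± 5.49 (n = 6) in CX3CL1-ct. The CX3CL1-ct mean was not above that of WT, so no added signal of the transgene was visible. The gene-level value cannot separate transgene from endogenous transcripts, and it does not check the CX3CL1-ct label. Prox1, which marks dentate granule cells, was present in every library, at 4.78 to 14.9 FPKM. By median absolute log2 difference over the genes tested, libraries CX3CL1-ct 1, 2 and 3 were more alike than any other libraries of 1 group. Their difference was 0.08 to 0.10, against 0.11 to 0.21 in the other 18 pairs of 1 group. By correlation they did not stand apart, at 0.9681 for CX3CL1-ct 1 and 3 against 0.9687 for CX3CL1-ct 1 and 6. The variance between the 3 was 2.24 to 3.12 times the estimated counting noise, against 3.12 to 15.7 times in the other 18 pairs. How far separate preparations of 1 RNA differ was not measured here, and the labels do not say whether the 3 are separate animals. Results are therefore given with them as 3 libraries and also averaged to 1.

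The 38 members were lowest in CAMK. The mean of their log2(FPKM + 1) was 2.13, 2.16 and 2.20 in CAMK 1, 2 and 3, and 2.23, 2.34 and 2.39 in WT 1, 2 and 3. In CX3CL1-ct 1 to 6 it was 2.36, 2.39, 2.36, 2.25, 2.30 and 2.20. Every CAMK library was thus below every WT library, while CX3CL1-ct 6 stood next to CAMK 3, at 2.1965 against 2.1963. With the libraries rescaled by their median ratio to a common reference, CX3CL1-ct 6 (2.177) lay below CAMK 2 (2.188) and CAMK 3 (2.185). Every CAMK library was still below every WT library. CX3CL1-ct 1, 2 and 3 were the 3 highest of their group. Summed over the members, this was 175 ± 5.47 FPKM (n = 3) in CAMK, 197 ± 13.4 (n = 3) in WT and 201 ± 11.5 (n = 6) in CX3CL1-ct. In bulk tissue, fewer cells in S phase and less RNA per cell cannot be told apart.

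**Figure D1:**
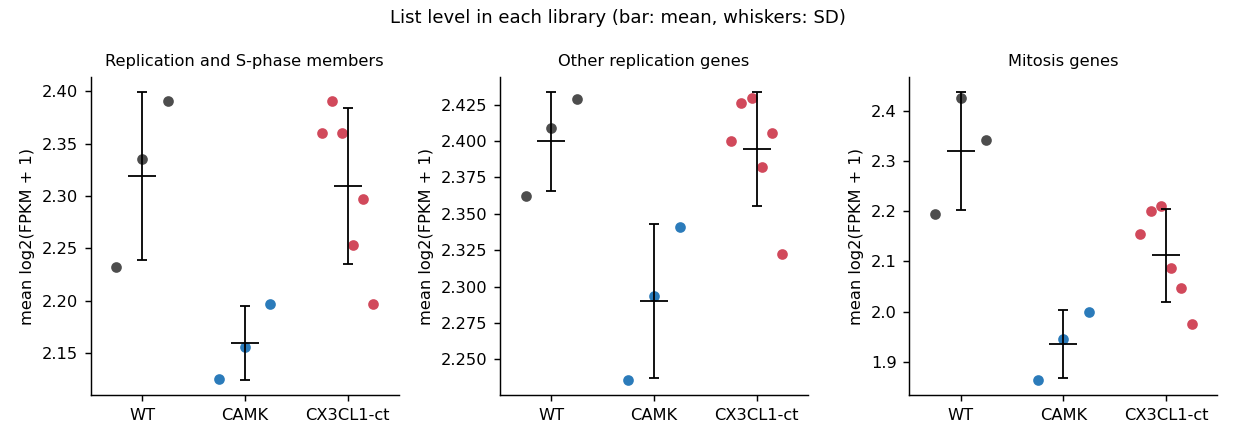
Mean log2(FPKM + 1) (y axis) over the members, over 56 other replication genes and over 18 mitosis genes, in each library (points, in order of library number from left to right) of the 3 groups (x axis), and bars show mean ± SD. The 3 CAMK libraries lie at 2.13 to 2.20 for the members and below all WT libraries in each of the 3 lists.

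Gene by gene, the CAMK mean was the lowest of the 3 group means in 35 of 38 members and the highest in 0. Over the genes tested it was the lowest in 40.6%. The highest mean was that of WT in 19 members and that of CX3CL1-ct in the other 19. CAMK 1 held the lowest value of all 12 libraries in 10 members, CAMK 2 in 9 and CAMK 3 in 3. No CAMK library held the highest value of any member. WT 3 held the highest value in 10 members and CX3CL1-ct 5 in 9, but CX3CL1-ct 5 also held the lowest in 4, so this library did not move one way.

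**Figure D2:**
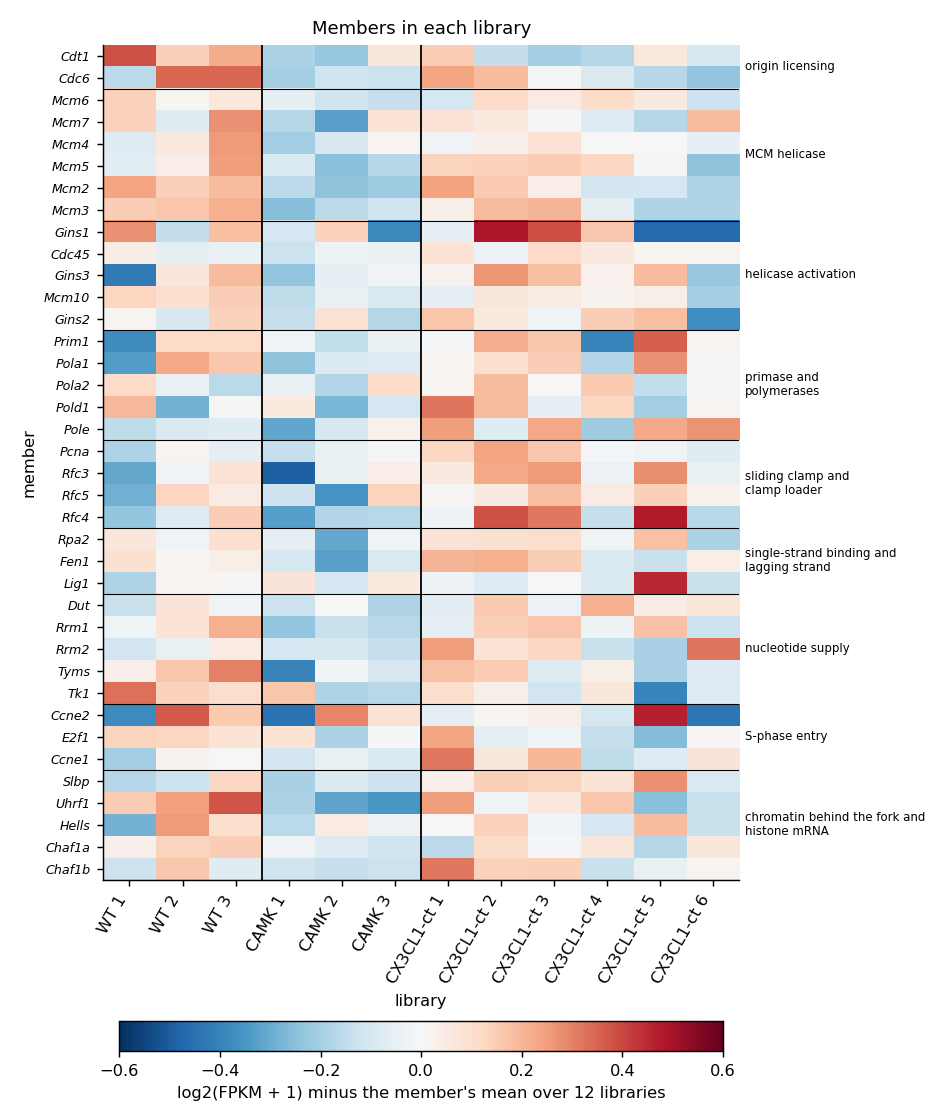
Colour shows log2(FPKM + 1) of each member (y axis, grouped by role) in each library (x axis) minus the mean of that member over the 12 libraries. The CAMK columns are mostly blue, CX3CL1-ct 1 to 3 mostly red, and CX3CL1-ct 5 mixes deep red (Lig1, Rfc4, Ccne2) with deep blue (Gins1, Tk1).

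No member passed the test in any comparison. The test was limma on log2(FPKM + 1) over the 16503 genes that reached 1 FPKM in 3 or more libraries, with Benjamini-Hochberg adjustment over all of them and a threshold of 0.05. It took in 37 members, since Gins2 did not reach that level. All 3 comparisons come from 1 fit, and each pair of comparisons shares a group of libraries, so their values are set side by side and are not independent.

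Between CAMK and WT, 35 of the 37 members (94.6%) had a log2 difference below 0, against 49.5% of all genes tested. Their median was -0.15, against 0.0022 for all genes tested. Of the members, 0 were called, against 0.358% of the genes tested, and the smallest adjusted p was 0.0964, for Uhrf1. At an unadjusted p under 0.05 there were 7 members (18.9%), each with the lower value in CAMK, against 12.4% of the genes tested. Without WT 3 there were 4, and the members' median was -0.09. In 13 members (35.1%) every CAMK library was below every WT library, against 8.8% of the genes tested. The 2 members above 0 were Pcna and Lig1. Same-numbered CAMK and WT libraries deviated together, and with the number as a block in the 9 libraries numbered 1 to 3, limma called 2 members, Mcm2 (adjusted p = 0.0422) and Uhrf1 (adjusted p = 0.0460). The same 2 were called in those 9 libraries without the block. In the 6 CAMK and WT libraries alone 0 were called, with a smallest adjusted p of 0.0991 with the block and 0.118 without it. The 2 calls were thus seen only in fits whose estimate of the spread held CX3CL1-ct 1, 2 and 3, the libraries closest by median difference, and not 4, 5 and 6.

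Between CX3CL1-ct and CAMK, 36 of the 37 members (97.3%) had a log2 difference above 0, against 63.2% of all genes tested. Their median was 0.17, against 0.04 for all genes tested. Of the members, 0 were called, against 0.0606% of the genes tested, and the smallest adjusted p by limma was 0.725. At an unadjusted p under 0.05 there were 8 members (21.6%), against 6.37% of the genes tested, and each of the 8 had the higher value in CX3CL1-ct. This count did not hold under other settings. It was 2 without CAMK 1, 4 without CAMK 2, CX3CL1-ct 2 or CX3CL1-ct 3, 5 without CX3CL1-ct 1, 3 with CX3CL1-ct 1 to 3 averaged and 4 with the libraries rescaled. Every CX3CL1-ct library was above every CAMK library in 2 members (5.41%), Rrm1 and Rfc4, against 2.78% of the genes tested. With CX3CL1-ct 1 to 3 averaged to 1 library, 34 members were above 0, with a median of 0.13. With the libraries rescaled by their median ratio to a common reference, 33 (89.2%) were above 0, with a median of 0.12, and the share of all genes fell from 63.2% to 48.4%. The same rescaling put CX3CL1-ct 6 below CAMK 2 in Rrm1 and in Rfc4, so neither member kept its gap.

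Between CX3CL1-ct and WT, 18 members had a log2 difference above 0 and 19 (51.4%) below it, against 37.3% of all genes tested below it. Their median was -0.0085, against 0.04 for all genes tested. Of the members, 0 were called, against 0.454% of the genes tested, with a smallest adjusted p by limma of 0.318, for Cdt1. At an unadjusted p under 0.05 there were 2 (5.41%), Cdt1 and Uhrf1, against 12.3% of the genes tested. Every CX3CL1-ct library was below every WT library in 2 members (5.41%), Tk1 and Mcm10, against 1.38% of the genes tested. The 95% confidence interval lay within a 1.5-fold difference in all 37 members, against 82.1% of the genes tested. Between CX3CL1-ct and CAMK this held for 35 members (85.1% of the genes tested), and between CAMK and WT for 29 (75.1%). These intervals are on the log2(FPKM + 1) scale, which understates the change of genes near 1 FPKM.

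**Figure D3:**
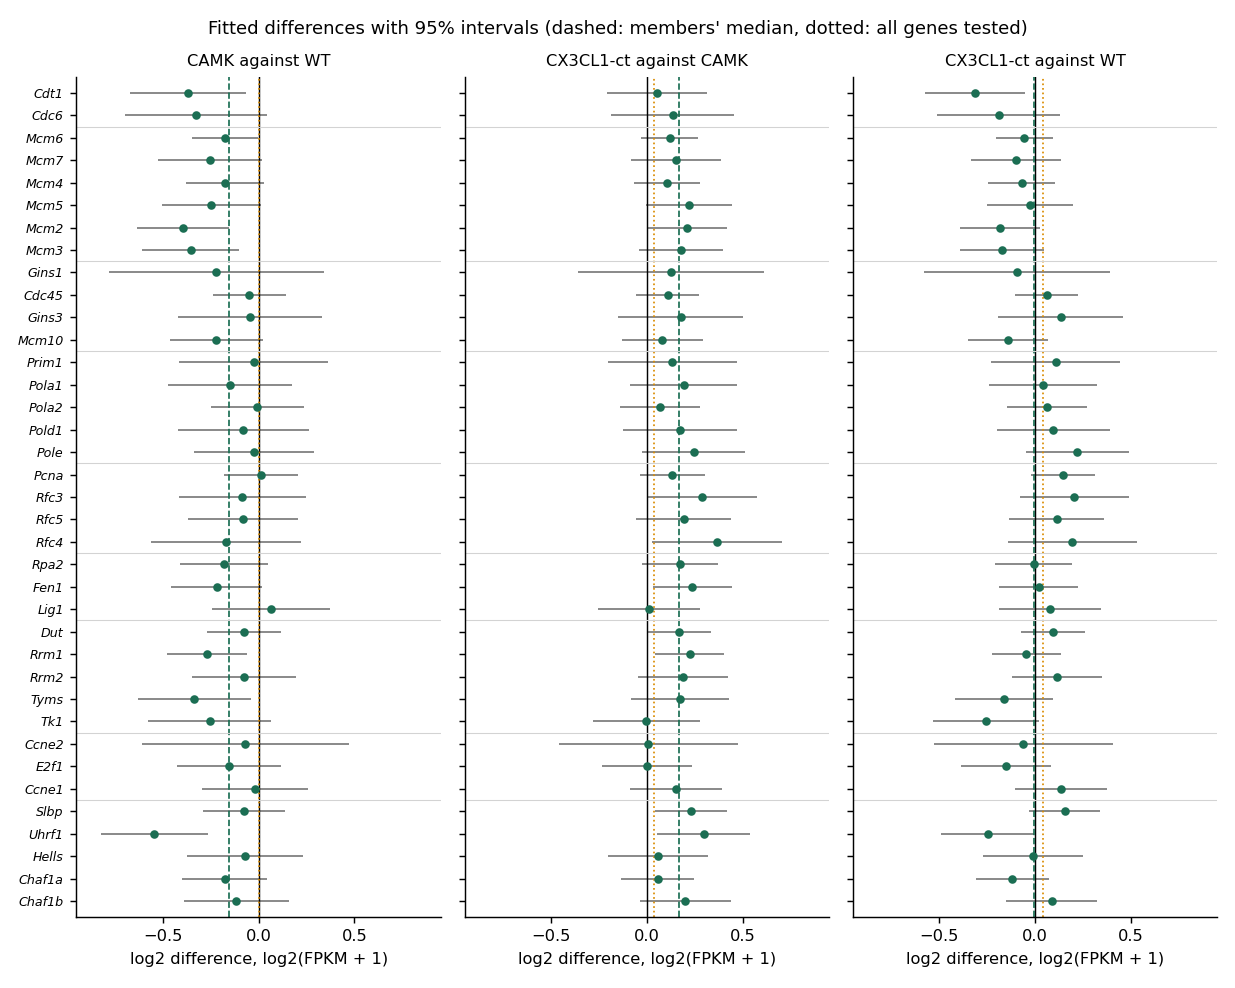
Fitted log2 difference (x axis, on log2(FPKM + 1)) of the 37 members tested (y axis, grouped by role) with 95% confidence intervals, for the 3 comparisons, with the members' median (dashed) and the median of all genes tested (dotted). In CAMK against WT 35 points lie left of 0, in CX3CL1-ct against CAMK 36 lie right of it, and in CX3CL1-ct against WT they lie on both sides.

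Origin licensing was represented by Cdt1 and Cdc6, which were among the least abundant members. Cdt1 (chromosome 8, 122568015 to 122573554, mm10, as are all positions given here), which brings the Mcm ring to the origin, stood at 1.53, 1.15 and 1.26 FPKM in WT, 0.702, 0.659 and 1.03 in CAMK, and 0.685 to 1.16 with a median of 0.789 in CX3CL1-ct. WT 1 was the highest library, and no CAMK library reached the lowest WT value, while CX3CL1-ct overlapped both groups. Its log2 difference was -0.37 for CAMK against WT (SE 0.14, adjusted p = 0.311) and -0.32 for CX3CL1-ct against WT (SE 0.12, adjusted p = 0.318). Cdc6, the loader's ATPase, averaged 1.16 ± 0.406 FPKM (n = 3) in WT, 0.704 ± 0.0505 (n = 3) in CAMK and 0.884 ± 0.252 (n = 6) in CX3CL1-ct. WT 1, at 0.694 FPKM, lay among the CAMK libraries, far from WT 2 and WT 3 at 1.39 and 1.40.

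The 6 Mcm genes encode the ring of the replicative helicase, whose subunits are used in equal number. All 6 had a log2 difference below 0 between CAMK and WT, from -0.39 to -0.17, and above 0 between CX3CL1-ct and CAMK, from 0.11 to 0.22. Between CX3CL1-ct and WT all 6 were below 0, from -0.18 to -0.03. Summed over the 6, WT held 37.3, 35.6 and 40.4 FPKM, CAMK 30.7, 29.4 and 32.4, and CX3CL1-ct 32.7 to 37.6 with a median of 35.2. By this sum CAMK thus lay below every WT library, and below every CX3CL1-ct library by a narrow margin. By mean log2(FPKM + 1), CAMK (2.473 to 2.580) still lay below WT (2.729 to 2.879) but overlapped with CX3CL1-ct (2.573 to 2.786). The levels of the 6 genes were not equal, and over all libraries mean FPKM ran from 10.02 for Mcm6 down to 3.27 for Mcm3.

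Mcm2 (chromosome 6, 88883474 to 88898780) had the smallest p of the 6 and stood at 5.03, 4.65 and 4.85 FPKM in WT, 3.60, 3.34 and 3.42 in CAMK, and 3.50 to 5.06 with a median of 4.02 in CX3CL1-ct. The WT and CAMK libraries did not overlap, and the CX3CL1-ct libraries reached into the range of both, with 1 to 3 at 4.27 to 5.06 FPKM and 4 to 6 at 3.50 to 3.76. The log2 difference was -0.39 for CAMK against WT (SE 0.11, adjusted p = 0.169), 0.21 for CX3CL1-ct against CAMK (SE 0.10, adjusted p = 0.775) and -0.18 for CX3CL1-ct against WT (SE 0.10, adjusted p = 0.466). Mcm6 (chromosome 1, 128331590 to 128359664), the most abundant of the ring and shown above with its pair of E2F-type matches, stood at 11.1, 10.1 and 10.5 FPKM in WT, 9.62, 9.14 and 8.98 in CAMK, and 9.09 to 10.9 with a median of 10.4 in CX3CL1-ct. All CAMK libraries were below all WT libraries, by a gap from 9.62 to 10.1 FPKM. The fitted log2 difference was -0.17 for CAMK against WT (SE 0.08, adjusted p = 0.399). Mcm3 averaged 3.78 ± 0.108 FPKM in WT, 2.75 ± 0.184 in CAMK (n = 3 each) and 3.27 ± 0.513 in CX3CL1-ct (n = 6), and its WT and CAMK libraries did not overlap either. Mcm5 averaged 4.58 ± 0.642, 3.68 ± 0.261 and 4.48 ± 0.551 FPKM in the same order, without overlap between WT and CAMK. For Mcm4 and Mcm7 the WT and CAMK libraries overlapped.

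Helicase activation was represented by Cdc45, 3 GINS subunits and Mcm10, which helps the helicase start. Gins1 (chromosome 2, 150905400 to 150931280), the most abundant, stood at 3.64, 2.47 and 3.34 FPKM in WT, 2.58, 3.22 and 1.93 in CAMK, and 1.77 to 4.37 with a median of 2.99 in CX3CL1-ct. Its libraries were scattered, since CX3CL1-ct 2 and 3 were the 2 highest of all 12 and CX3CL1-ct 5 and 6 the 2 lowest. With such a spread, the log2 difference of -0.22 between CAMK and WT had an SE of 0.26 (adjusted p = 0.793). Mcm10 (chromosome 2, 4989714 to 5012791) stood at 1.04, 1.001 and 1.07 FPKM in WT, 0.679, 0.804 and 0.750 in CAMK, and 0.623 to 0.951 with a median of 0.9004 in CX3CL1-ct. All WT libraries were above all others. The log2 difference was -0.22 for CAMK against WT (SE 0.11, adjusted p = 0.454) and -0.14 for CX3CL1-ct against WT (SE 0.10, adjusted p = 0.574). Cdc45 hardly varied, with group means of 1.72 ± 0.102, 1.63 ± 0.0978 and 1.83 ± 0.104 FPKM in WT, CAMK and CX3CL1-ct. Gins3 averaged 1.24 ± 0.472, 1.14 ± 0.168 and 1.43 ± 0.284 FPKM. Gins2, which was not tested, stayed between 0.283 and 0.884 FPKM.

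Primase and the polymerases are represented by 5 members. All 5 had a log2 difference above 0 between CX3CL1-ct and WT, from 0.04 to 0.22, as they had between CX3CL1-ct and CAMK, from 0.07 to 0.24. Between CAMK and WT all 5 were below 0, but by no more than 0.15. Whether they differ from the Mcm genes in this was not tested. Prim1 (chromosome 10, 128015168 to 128030037), the catalytic subunit of primase, was the most abundant and stood at 6.24, 9.21 and 9.22 FPKM in WT, 8.24, 7.50 and 8.15 in CAMK, and 6.16 to 11.1 with a median of 9.05 in CX3CL1-ct. WT 1 and CX3CL1-ct 4 were low and CX3CL1-ct 5 was the highest, so that the groups overlapped fully. It had a log2 difference of 0.13 for CX3CL1-ct against CAMK (SE 0.15, adjusted p = 0.936). Pole (chromosome 5, 110286306 to 110337474), the catalytic subunit of the leading-strand polymerase, stood at 2.16, 2.31 and 2.35 FPKM in WT, 1.83, 2.29 and 2.58 in CAMK, and 2.03 to 3.23 with a median of 3.13 in CX3CL1-ct. In 4 CX3CL1-ct libraries it was at 3.12 to 3.23 FPKM, and in the other 2 it lay within the WT and CAMK range. Fitted, the log2 difference was 0.24 for CX3CL1-ct against CAMK (SE 0.12, adjusted p = 0.775) and 0.22 for CX3CL1-ct against WT (SE 0.12, adjusted p = 0.495). Pola1 and Pola2, subunits of polymerase alpha, averaged 4.52 ± 1.10 and 3.97 ± 0.480 FPKM in WT, 3.91 ± 0.307 and 3.95 ± 0.489 in CAMK, and 4.62 ± 0.597 and 4.18 ± 0.440 in CX3CL1-ct. Pold1, of the lagging-strand polymerase, averaged 2.52 ± 0.578, 2.32 ± 0.380 and 2.75 ± 0.479 FPKM.

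The sliding clamp and its loader lay in the same direction as the polymerases, with all 4 genes above 0 in CX3CL1-ct against both other groups. Pcna (chromosome 2, 132249162 to 132253314) encodes the clamp and was the most abundant member of all 38. It stood at 22.1, 25.5 and 24.3 FPKM in WT, 22.8, 24.5 and 25.1 in CAMK, and 23.9 to 29.9 with a median of 26.3 in CX3CL1-ct. CX3CL1-ct 1, 2 and 3 were the 3 highest libraries at 27.6 to 29.9 FPKM, and the other 9 lay between 22.1 and 25.5. The log2 difference was 0.14 for CX3CL1-ct against WT (SE 0.08, adjusted p = 0.472), 0.13 for CX3CL1-ct against CAMK (SE 0.08, adjusted p = 0.805) and 0.01 for CAMK against WT (SE 0.09, adjusted p = 0.978). The genome holds processed pseudogenes of Pcna with near-identical sequence, so its value is uncertain by the fragments they share. Rfc4 (chromosome 16, 23113943 to 23127737), a loader subunit, had the largest fitted difference between CX3CL1-ct and CAMK of the 37 members and stood at 2.72, 3.14 and 3.83 FPKM in WT, 2.47, 2.86 and 2.89 in CAMK, and 2.89 to 5.06 with a median of 3.85 in CX3CL1-ct. All CX3CL1-ct libraries were above all CAMK libraries, but the margin was narrow, with CX3CL1-ct 6 at 2.887 and CAMK 3 at 2.886 FPKM. CX3CL1-ct 2, 3 and 5 were the 3 highest of all. Its log2 difference was 0.36 (SE 0.15, adjusted p = 0.772) and 0.19 against WT (SE 0.15, adjusted p = 0.635). Rfc3 averaged 7.21 ± 1.13, 6.79 ± 1.45 and 8.44 ± 0.967 FPKM in WT, CAMK and CX3CL1-ct, and Rfc5 4.40 ± 0.799, 4.11 ± 0.864 and 4.79 ± 0.278.

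**Figure D4:**
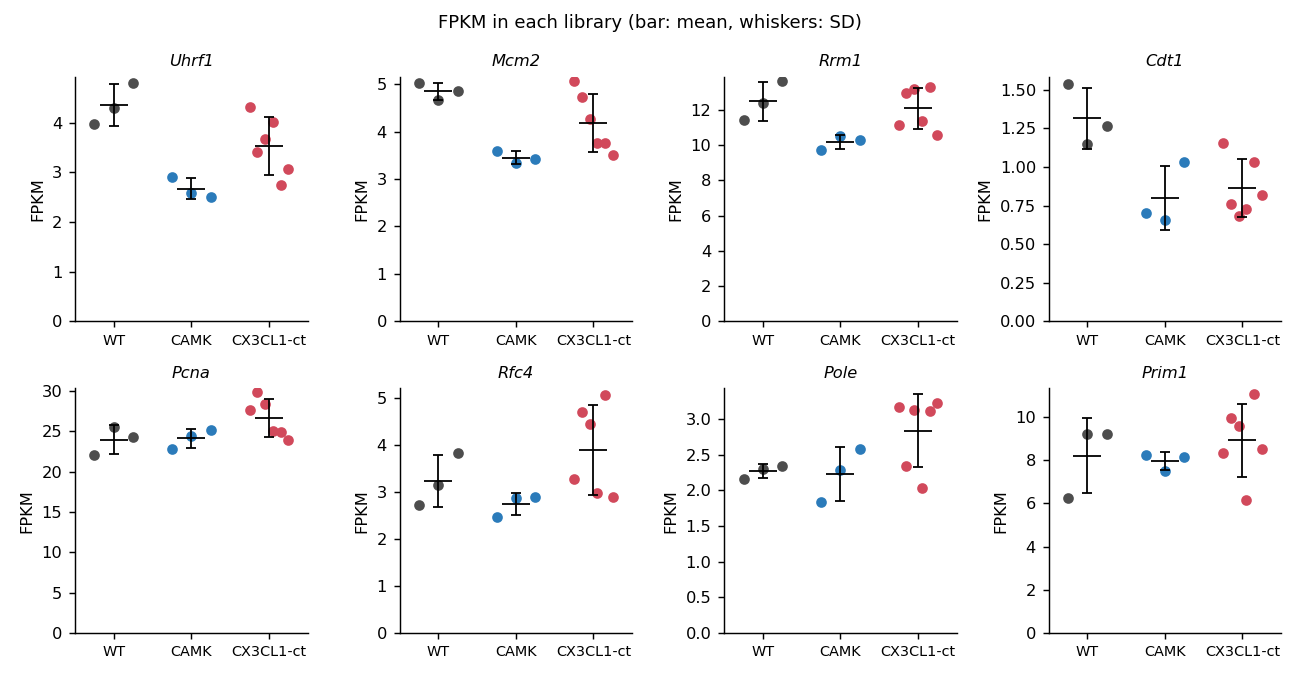
FPKM (y axis, from 0) of 8 members in each library (points, in order of library number from left to right) of the 3 groups (x axis), and bars show mean ± SD. For Uhrf1, Mcm2, Rrm1 and Cdt1 the WT and CAMK points do not overlap, and for Pcna, Rfc4, Pole and Prim1 they do.

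Rpa2, Fen1 and Lig1 bind single-stranded DNA, trim the ends of Okazaki fragments and join them. Rpa2 (chromosome 4, 132768332 to 132778752) stood at 5.92, 5.51 and 6.07 FPKM in WT, 5.35, 4.33 and 5.48 in CAMK, and 4.78 to 6.46 with a median of 6.02 in CX3CL1-ct. CAMK 2 was the lowest, and the CAMK libraries were all just below the WT ones. This gave a log2 difference of 0.17 for CX3CL1-ct against CAMK (SE 0.09, adjusted p = 0.7805) and -0.18 for CAMK against WT (SE 0.11, adjusted p = 0.539). Fen1 (chromosome 19, 10199132 to 10204169) stood at 5.77, 5.39 and 5.52 FPKM in WT, 4.94, 4.06 and 4.96 in CAMK, and 4.79 to 6.36 with a median of 5.79 in CX3CL1-ct. No CAMK library reached the lowest WT library, and CX3CL1-ct 1, 2 and 3, at 6.04 to 6.36 FPKM, were above all others. The log2 difference was 0.24 for CX3CL1-ct against CAMK (SE 0.09, adjusted p = 0.739) and -0.22 for CAMK against WT (SE 0.11, adjusted p = 0.451). Lig1 averaged 3.67 ± 0.361, 3.89 ± 0.338 and 3.97 ± 0.831 FPKM in WT, CAMK and CX3CL1-ct, where CX3CL1-ct 5 stood apart at 5.63 FPKM.

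The nucleotide supply genes held 34.2 to 36.8 FPKM in CAMK when summed, 37.3 to 41.8 in WT and 38.8 to 43.0 in CX3CL1-ct, so that by this sum CAMK lay below both. By mean log2(FPKM + 1), CAMK (2.65 to 2.72) lay below WT (2.82 to 2.93) but overlapped with CX3CL1-ct (2.69 to 2.91). Dut (chromosome 2, 125247190 to 125258608), which removes dUTP, was the most abundant and stood at 14.3, 16.7 and 15.6 FPKM in WT, 14.4, 15.8 and 13.8 in CAMK, and 15.1 to 18.5 with a median of 16.5 in CX3CL1-ct. CX3CL1-ct 4 was the highest library and CAMK 3 the lowest, with overlap of all groups. limma gave it a log2 difference of 0.17 for CX3CL1-ct against CAMK (SE 0.08, adjusted p = 0.775). Rrm1 (chromosome 7, 102441695 to 102469771), the large subunit of ribonucleotide reductase, stood at 11.4, 12.4 and 13.7 FPKM in WT, 9.73, 10.5 and 10.3 in CAMK, and 10.6 to 13.3 with a median of 12.2 in CX3CL1-ct. CAMK did not overlap with either WT or CX3CL1-ct, whereas those 2 groups did overlap. The margin to CX3CL1-ct was narrow, with CX3CL1-ct 6 at 10.57 and CAMK 2 at 10.55 FPKM, and it was lost after rescaling. The log2 difference was -0.27 for CAMK against WT (SE 0.10, adjusted p = 0.282), 0.22 for CX3CL1-ct against CAMK (SE 0.08, adjusted p = 0.725) and -0.05 for CX3CL1-ct against WT (SE 0.08, adjusted p = 0.861). Its partner Rrm2, the small subunit, which is made in S phase, averaged 7.03 ± 0.453, 6.62 ± 0.116 and 7.75 ± 1.22 FPKM in WT, CAMK and CX3CL1-ct. Tyms and Tk1 make thymidine nucleotides by the new and the salvage route. Tyms averaged 2.52 ± 0.332, 1.80 ± 0.377 and 2.15 ± 0.318 FPKM, and no CAMK library reached the lowest WT library. Tk1 averaged 2.43 ± 0.293, 1.89 ± 0.411 and 1.89 ± 0.350 FPKM, was below WT in every CX3CL1-ct library, and was the 1 member with a difference below 0 between CX3CL1-ct and CAMK.

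The genes of S-phase entry, Ccne1, Ccne2 and E2f1, which were on both sides of 0 between CX3CL1-ct and CAMK after rescaling, were not called in any comparison. Ccne2 (chromosome 4, 11191351 to 11204779), a cyclin E, stood at 2.02, 4.08 and 3.38 FPKM in WT, 1.89, 3.82 and 3.17 in CAMK, and 1.91 to 4.43 with a median of 2.87 in CX3CL1-ct. The spread within each group was about as wide as the whole range, with WT 1, CAMK 1 and CX3CL1-ct 6 at 1.89 to 2.02 FPKM. For this gene the log2 difference was -0.06 for CX3CL1-ct against WT (SE 0.21, adjusted p = 0.933) and -0.07 for CAMK against WT (SE 0.25, adjusted p = 0.945). Much of this spread was shared by the numbered pairs: the log2 difference between CAMK and WT was -0.06, -0.07 and -0.07 in pairs 1, 2 and 3, and with the pair as a block in these 6 libraries the SE was 0.08 (adjusted p = 0.676). E2f1 (chromosome 2, 154559407 to 154569892), the transcription factor whose family binds motifs like those shown above, stood at 2.56, 2.55 and 2.44 FPKM in WT, 2.44, 1.85 and 2.23 in CAMK, and 1.71 to 2.83 with a median of 2.16 in CX3CL1-ct. All WT libraries were above all CAMK libraries, though WT 3 and CAMK 1 were nearly equal, and CX3CL1-ct lay on both sides. Its log2 difference was -0.15 for CX3CL1-ct against WT (SE 0.11, adjusted p = 0.587). Ccne1 averaged 1.82 ± 0.244, 1.78 ± 0.0689 and 2.11 ± 0.374 FPKM in WT, CAMK and CX3CL1-ct.

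Of the genes that rebuild chromatin behind the fork, Uhrf1 differed most. Uhrf1 (chromosome 17, 56303321 to 56323486) brings the maintenance DNA methyltransferase to newly copied DNA. It stood at 3.97, 4.30 and 4.80 FPKM in WT, 2.91, 2.59 and 2.51 in CAMK, and 2.74 to 4.31 with a median of 3.53 in CX3CL1-ct. The CAMK libraries were all below all WT libraries, and CX3CL1-ct lay between, with CX3CL1-ct 5 within the CAMK range and CX3CL1-ct 1 and 4 within the WT range. The log2 difference was -0.54 for CAMK against WT (SE 0.13, adjusted p = 0.0964), 0.30 for CX3CL1-ct against CAMK (SE 0.11, adjusted p = 0.725) and -0.25 for CX3CL1-ct against WT (SE 0.11, adjusted p = 0.396). The enzyme it recruits, Dnmt1, had a mean of 18.0 ± 0.240 FPKM in WT, 20.3 ± 2.44 in CAMK (n = 3 each) and 22.0 ± 1.13 in CX3CL1-ct (n = 6). Slbp (chromosome 5, 33634952 to 33652574), which binds the stem-loop of histone mRNA, stood at 12.7, 13.2 and 15.8 FPKM in WT, 12.5, 13.6 and 13.2 in CAMK, and 13.5 to 17.7 with a median of 15.6 in CX3CL1-ct. CX3CL1-ct 5 was the highest, and CX3CL1-ct 6 was the one library of its group below the highest CAMK library. Here the log2 difference was 0.23 for CX3CL1-ct against CAMK (SE 0.09, adjusted p = 0.725). Chaf1a and Chaf1b, subunits of the histone chaperone CAF-1, averaged 2.61 ± 0.161 and 1.81 ± 0.306 FPKM in WT, 2.19 ± 0.114 and 1.59 ± 0.0154 in CAMK, and 2.33 ± 0.277 and 1.99 ± 0.336 in CX3CL1-ct. Hells, a chromatin remodeller, averaged 3.11 ± 0.760, 2.88 ± 0.285 and 3.04 ± 0.361 FPKM.

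A wider list of 56 other replication genes (origin recognition, further loader and polymerase subunits, the fork protection complex and others) was described in the same way. Of its 47 genes tested, 47 were above 0 between CX3CL1-ct and CAMK (63.2% of all genes tested were), with a median of 0.09, and 38 after the libraries were rescaled (48.4% of all genes). Between CAMK and WT 38 were below 0 (49.5% of all genes), with a median of -0.08, and between CX3CL1-ct and WT 23 were above and 24 below. No gene of this list was called in any comparison by limma, and at an unadjusted p under 0.05 there were 4 for CAMK against WT (8.51%), 3 for CX3CL1-ct against CAMK (6.38%) and 4 for CX3CL1-ct against WT (8.51%). Over all genes tested these shares were 12.4%, 6.37% and 12.3%, so the list was at or below the background. Atad2, a chromatin protein of S phase, stood at 2.97, 3.98 and 3.79 FPKM in WT, 2.17, 2.26 and 2.26 in CAMK, and 2.48 to 3.24 with a median of 2.95 in CX3CL1-ct. Its CAMK libraries were below all others, and its log2 difference was -0.50 for CAMK against WT (SE 0.11, adjusted p = 0.0778). Ccna2, the cyclin of S phase and G2, averaged 10.3 ± 0.686 FPKM in the WT, 7.94 ± 1.33 in the CAMK and 9.48 ± 1.26 in the CX3CL1-ct libraries (log2 difference of -0.35 for CAMK against WT, adjusted p = 0.321). Mcmbp, which binds Mcm proteins, stood higher in every CX3CL1-ct library than in any CAMK library (log2 difference 0.13, adjusted p = 0.725). Dnmt1 was higher in every CX3CL1-ct library than in any WT library (log2 difference 0.28, adjusted p = 0.121).

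Mitosis genes had fitted levels below WT in both other groups. All 18 had a log2 difference below 0 between CAMK and WT (49.5% of all genes tested), with a median of -0.36. All 18 were also below 0 between CX3CL1-ct and WT (37.3% of all genes), with a median of -0.20. Between CX3CL1-ct and CAMK all 18 (17 after rescaling) were above 0 (63.2% of all genes, 48.4% after rescaling), with a median of 0.20. In CAMK against WT, limma called 2 of them (0.358% of all genes), both with the lower value in CAMK, and in CX3CL1-ct against WT it called 0 (0.454% of all genes). Birc5, a subunit of the chromosomal passenger complex, stood at 6.13, 5.33 and 5.78 FPKM in WT, 3.54, 3.03 and 3.47 in CAMK, and 3.55 to 4.76 with a median of 4.36 in CX3CL1-ct. No CAMK or CX3CL1-ct library reached the lowest WT library. The fitted log2 difference was -0.63 for CAMK against WT (SE 0.10, adjusted p = 0.0201) and -0.35 for CX3CL1-ct against WT (SE 0.09, adjusted p = 0.111). Cdk1, the kinase that starts mitosis, stood at 9.32, 9.24 and 7.14 FPKM in WT, 4.70, 4.80 and 5.76 in CAMK, and 5.93 to 7.15 with a median of 6.35 in CX3CL1-ct. Its CAMK libraries lay below all WT libraries, and its log2 difference was -0.65 for CAMK against WT (SE 0.11, adjusted p = 0.0271). In CX3CL1-ct the members thus had a median near that of WT (-0.0085) and the mitosis genes a median of -0.20, and the difference between the lists was not tested. An E2F-type match was found in the promoters of 27 of 43 other replication genes (62.8%) and of 3 of 16 mitosis genes (18.8%), against 19.5% of the genes tested. CCAAT was found in 13 of the 16 (81.2%), against 42.8%, and these shares were not tested against each other. Of 7 cell cycle inhibitors tested, 0 were called in any comparison by limma, and 1 in each comparison was at an unadjusted p under 0.05. Cdkn1c, which holds cells out of the cycle, averaged 7.03 ± 3.09 FPKM in the WT, 12.0 ± 3.81 in the CAMK and 11.7 ± 2.07 in the CX3CL1-ct libraries (log2 difference 0.71 for CX3CL1-ct against WT, adjusted p = 0.215).

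Markers of other cells moved with the members. The 7 markers listed for ganglionic eminence and olfactory neuroblasts summed to 20.2, 49.1 and 37.9 FPKM in WT, 21.6, 29.4 and 28.0 in CAMK, and 59.9, 59.5, 58.1, 24.7, 47.5 and 24.4 in CX3CL1-ct 1 to 6. Which cells of these samples express the 7 genes was not tested. The libraries in which these markers were low, WT 1, all CAMK, CX3CL1-ct 4 and CX3CL1-ct 6, were also the 6 libraries in which the members' mean log2 was lowest. All 6 of these markers tested were above 0 between CX3CL1-ct and CAMK, with a median log2 difference of 0.56, and below 0 between CAMK and WT, with a median of -0.37, and 0 were called. None of the 7 was at 0 in any library, and the lowest was Gsx2, at 0.05 to 0.56 FPKM. With the mean log2 level of this list as a covariate, an alternative chosen after seeing the data, 30 of 37 members were above 0 between CX3CL1-ct and CAMK (36 without it), with a median of 0.10 (0.17 without it), and 0 were at an unadjusted p under 0.05 (8 without it). Between CAMK and WT 28 were below 0 (35 without it), with a median of -0.12 (-0.15), and 5 were at an unadjusted p under 0.05 (7). This list was low in the same 6 libraries as the members, so a smaller difference with it as a covariate follows from the choice. Whether cell content accounts for the members' levels was not tested.

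Most markers of intermediate progenitors and neuroblasts, and the tested markers of red blood cells, lay in the same direction as the members. Of 8 tested markers of the former, 6 were below 0 between CAMK and WT, with a median log2 difference of -0.40, and 6 above 0 between CX3CL1-ct and CAMK, with a median of 0.15. Between CAMK and WT the 8 ran from -0.89 to 0.88, and 2 of them went the other way. Their sum, most of it from Sox11 and Dcx, spanned 257 to 279 FPKM in WT, 259 to 291 in CAMK and 212 to 326 in CX3CL1-ct. All 5 erythroid markers tested were below 0 between CAMK and WT, with a median of -0.46, and above 0 between CX3CL1-ct and CAMK, with a median of 0.30. They summed to 219 to 466.4, 196 to 288 and 236 to 430.3 FPKM in WT, CAMK and CX3CL1-ct. Both medians between CAMK and WT were larger in size than the members' -0.15, and no marker of either list was called by limma in any comparison, with smallest adjusted p of 0.216 and 0.331 between CAMK and WT.

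Further lists are given with their summed FPKM in WT, then CAMK, then CX3CL1-ct. The 12 radial glia and stem cell markers spanned 958 to 1011, 814 to 1014 and 832 to 1142. Of these, 9 were below 0 between CAMK and WT and 9 above 0 between CX3CL1-ct and CAMK, with medians of -0.10 and 0.06. Ependyma markers spanned 23.3 to 25.5, 14.7 to 21.5 and 13.7 to 25.1. Of 5, 4 were below 0 between CAMK and WT, with a median of -0.43, and 4 also between CX3CL1-ct and CAMK, with a median of -0.07. Meninges markers spanned 28.8 to 38.7, 41.1 to 47.7 and 44.7 to 91.8, and all 7 were above 0 in each of the 3 comparisons, with 4 called between CX3CL1-ct and WT (2 after rescaling). Striatum markers spanned 31.2 to 229, 38.9 to 49.4 and 32.8 to 165, and WT 2, WT 3 and CX3CL1-ct 5 were the 3 high libraries. All 8 were below 0 between CAMK and WT, with a median of -1.20, and 7 above 0 between CX3CL1-ct and CAMK, with a median of 0.11. Choroid plexus markers spanned 305 to 2320, 100.1 to 897 and 151 to 623, and all 6 were below 0 between CAMK and WT, with a median of -0.66, and 5 above 0 between CX3CL1-ct and CAMK, with a median of 0.01. For mature neuron, oligodendrocyte precursor, astrocyte, microglia and endothelial markers, medians ran from -0.08 to 0.12 between CAMK and WT and from -0.04 to 0.10 between CX3CL1-ct and CAMK. Single markers moved more than these medians, and the 8 mature neuron markers ran from -0.48 to 0.45 between CAMK and WT. Of the 8, 2 were higher and 2 lower in CAMK at an unadjusted p under 0.05 by limma (50%, against 12.4% of the genes tested). All 6 endothelial markers were above 0 in each of the 3 comparisons. No marker tested in these lists was at 0 in a library. The part of these lists in the result was not tested.

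Fragments of neighbouring genes could enter some of these values. In 12 members an exon overlaps a gene on the opposite strand, and the use of strand in counting is not given in the sources used here. Of the members described in full, these are Fen1 (Tmem258 and Gm10143), Slbp (Gm10459), Rfc4 (Eif4a2), Ccne2 (Ints8) and Pole (Gm15792). Of the others, they are Mcm7 (Ap4m1 and Cops6), Lig1 (Zswim9), Tk1 (Afmid), Rfc5 (Wsb2), Chaf1a (Ubxn6), Cdc45 (Ufd1) and Gins2 (Gse1). By the estimated depth, a member rested on 15.0 to 2310 fragments per library, fewest for Gins2 and most for Rrm1, and Gins2, Gins3 and Cdt1 never exceeded 76.6.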

How the data were processed

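Ribosome-depleted hippocampal RNA of 12 libraries was sequenced from both ends with a stranded kit, per the labels' protocols. The authors deposited FPKM for 29454 genes, made with TopHat, Bowtie, Cufflinks and Cuffdiff on build mm10, per the submitters' processing notes. Their versions, the scaling between libraries and the use of strand are not given in the sources used here.

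Groups came from sample titles. The FPKM were used as log2(FPKM + 1). limma 3.58.1 in R 4.3.3 fitted the 3 groups to all 12 libraries for 16503 genes (1 FPKM or more in 3 or more libraries), with eBayes and trend, two-sided p and Benjamini-Hochberg adjustment. On simulated data with 200 genes changed 2-fold it called 171 of them for CAMK against WT, 180 for CX3CL1-ct against CAMK and 177 for CX3CL1-ct against WT, and without change it called 0. Same-numbered CAMK and WT libraries correlated by 0.236, 0.163 and 0.1003 in their deviations from group means. Libraries of different number were not compared in this way, so these values do not settle whether the numbers mark pairs. Positions are from GENCODE M21, and depth was estimated with fragments of 180 nt.

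The members, roles, gene lists and alternatives were chosen with earlier results of these data known. Values in each WT and CAMK library, and the lowest, median and highest of the 6 CX3CL1-ct libraries, were given for the most abundant member of each role and the one with the smallest p. Tables used Python 3.11.15, pandas 2.3.3 and numpy 2.4.6. A marker of the erythroid list is not reported here and is in none of its values.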

Additional observations from a re-analysis of the deposited data

Results flagged for a closer look

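Lig1, the ligase that joins Okazaki fragments, stood at 5.63 FPKM in CX3CL1-ct 5, and the nearest of the other 5 libraries of that group stood at 3.84 FPKM. This gap was 0.805 of the range of the group, above the critical share of 0.625 for 6 samples. Of 39 such groups of 6 libraries examined, this was the 1 that passed, and chance alone passes about 1 in 20. Exons of Lig1 overlap Zswim9 on the opposite strand. Leaving CX3CL1-ct 5 out changed no count of members called.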

How the results depend on the processing

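The count of members called was 0 in every comparison under the other pseudocount (0.1), no filter, a mean FPKM of at least 5, rescaling, a robust prior, no trend, only the groups compared, and leaving out each library. Same-numbered libraries of CX3CL1-ct and of CAMK or WT correlated by -0.130 to 0.114, and whether numbers mark pairs was not tested. In the 9 libraries numbered 1 to 3 with the replicate block, 2 members were called between CAMK and WT and 1 between CX3CL1-ct and WT (Pcna, adjusted p = 0.0491 by limma), and without the block 2 and 0. Both fits gave a members' median of 0.24 between CX3CL1-ct and CAMK, against 0.17. With each library left out in turn, that median was 0.14 to 0.18, the one between CX3CL1-ct and WT -0.05 to 0.03, and the one between CAMK and WT -0.20 to -0.09.

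Counts over all genes moved more. Between CX3CL1-ct and CAMK 10 genes were called, against 6 with a mean FPKM of at least 5, 176 with the block and 191 in the same libraries without it, and 9 to 12 with 1 library left out. Between CX3CL1-ct and WT 75 were called, against 144 with no filter, 15 with the stricter filter, 38 with only the groups compared, 541 with the block, 518 without it, 28 with CX3CL1-ct 1 to 3 averaged, and 26 to 158 with 1 library left out. Between CAMK and WT 59 were called, against 123 with no filter, 8 with the stricter filter, 484 with the block, 426 without it, 112 with the block in CAMK and WT alone, 26 with CX3CL1-ct 1 to 3 averaged, and 21 to 153 with 1 library left out. The averaging, the 9 libraries without the block, the block in CAMK and WT alone and the covariate were chosen after seeing the data. The estimated depth limits members near 1 FPKM most.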
